A study of Mus musculus with 24 samples.

Results

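The comparison set 3 untreated libraries of Lkb1-/-/Crtc2-/- mouse embryonic fibroblasts (MEFs), clone A2, against 3 untreated libraries of the Lkb1-/- MEFs from which the clone was made. These 6 libraries were chosen by their labels of genotype and treatment among 24 libraries in 8 groups of 3, which also held wild-type MEFs, a second Lkb1-/-/Crtc2-/- clone, A1, and the same 4 genotypes treated with IL-1β. The cells were 3T3 MEFs, an immortalized fibroblast line, and both groups of the comparison lacked LKB1, which is encoded by Stk11, and received no cytokine, so that the named difference was the loss of CRTC2. Clone A2 was 1 clone, grown from a single cell after CRISPR/Cas9 with guides to the first exon of Crtc2, and an effect of the deletion and a property of that cell cannot be told apart within it. Nothing in the labels says that the 3 libraries of a group came from separate cultures. The p-values measured only the spread between libraries within groups, estimated over all 24 libraries, and that spread may be technical.

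LKB1 is a kinase that activates the AMPK family, in which the salt-inducible kinases (SIKs) hold the CRTC coactivators in the cytoplasm by phosphorylation. Without this restraint CRTC proteins enter the nucleus, bind the factor CREB at cAMP response elements, and recruit the acetyltransferases CBP and p300 to the promoters of cAMP-inducible genes. In fibroblasts the products of such genes include growth factor ligands, a prostaglandin synthase, nuclear receptors of the Nr4a group and several cytokines, among them members of the IL-6 family, which signal through the shared receptor gp130, JAK kinases and STAT3.

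RNA was measured by sequencing as counts of read pairs per gene, given here as CPM, that is, scaled to the normalized size of each library. Counts on genes were between 41935934 and 45379872 in the 6 libraries, and 17522 genes had enough counts to be tested. On the first principal component, with 58.7% of the variance, the 3 clone A2 libraries lay apart from the 3 Lkb1-/- libraries. On the second, with 20.3%, the library numbered 1 of each group lay apart from the others, and clone A2 library 1 also had the highest share of pairs on no gene, 34.0%. For several gene lists the counts of called genes are also given without both libraries.

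In untreated clone A2, 19 of 28 CREB target genes, 5 of 7 ligands of the IL-6 family and 14 of 29 genes of glycolysis and the hypoxia response were lower than in Lkb1-/- MEFs, among them Areg, Ptgs2, Nr4a1, Il11, Il6 and Lif, whereas Bmp2, Wnt5a, Cxcl12, Ccl2 and Ccl7 were higher. Of the 17522 genes, 5655 were called, that is, had a Benjamini-Hochberg false discovery rate (FDR) under 0.05 in edgeR's quasi-likelihood test. This was 32.3% of the genes tested, with 3005 higher (17.1%) and 2650 lower (15.1%) in clone A2. A log2 fold change beyond 1 was seen for 650 of the higher and 555 of the lower genes, and the median over all genes was 0.02. The 3 values of each group did not overlap for 40.7% of all genes, and clone A2 was the lower group for 20.1%. These shares are the background against which the counts of each gene list were read. The lists and their members were chosen with earlier results of these data known, so that a count beyond these shares describes a list and does not test it.

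**Figure D1:**
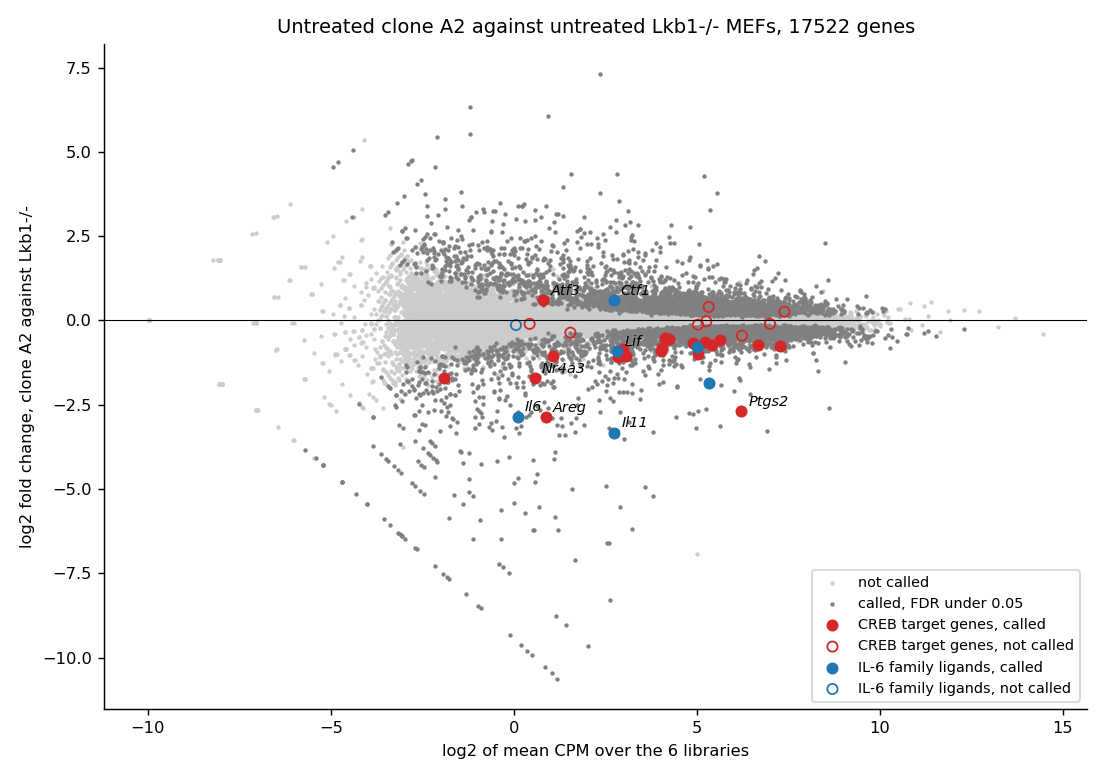
Log2 fold change of untreated clone A2 against untreated Lkb1-/- MEFs (vertical axis) against the log2 of the mean CPM over the 6 libraries (horizontal axis), 1 point per gene, for 17522 genes. Grey points are all genes, dark grey those called; red circles are CREB target genes and blue circles IL-6 family ligands, filled where called. All but 1 of the filled red circles, and all but 1 of the filled blue ones, lie below the line of no change.

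The edited gene itself was examined first. Crtc2, at chr3:90254163-90264125 of GRCm38, gave 82.1, 79.1 and 82.3 CPM in the Lkb1-/- libraries and 50.6, 48.9 and 50.02 CPM in clone A2 (log2 fold change -0.70 ± 0.07, FDR 9.91e-08). The groups did not overlap, and the transcript was lower in the clone but not lost. The counts do not show the edit or the protein. Stk11, at chr10:80115803-80130682, gave 18.7, 16.96 and 16.3 CPM in the Lkb1-/- libraries and 18.9, 17.4 and 17.9 CPM in clone A2 (log2 fold change 0.06 ± 0.07, FDR 0.561), and the untreated wild-type libraries had 85.99 ± 1.68 CPM (SD, n = 3). Both groups of the comparison therefore had the low Stk11 level of the shared Lkb1-/- background. Of the 58 other genes tested within 1 Mb of Crtc2, 9 were called higher and 8 lower, with a median log2 fold change of -0.01. Among the 3 tested genes nearest on each side, Slc39a1, a zinc transporter, was called lower (log2 fold change -0.57 ± 0.09, FDR 8.53e-05), and Creb3l4, Jtb, Dennd4b, 4930537H20Rik and Gatad2b were not called, with log2 fold changes between -0.38 and 0.11.

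Of the 12 genes of the CRTC, CREB, CBP/p300 and SIK list, which also held Stk11, 5 were called lower and 1 higher. Crem, which encodes an inducible CREB family repressor and is itself a CREB target, gave 9.802, 8.75 and 10.9 CPM in the Lkb1-/- libraries and 4.37, 4.82 and 4.78 CPM in clone A2 (log2 fold change -1.07 ± 0.14, FDR 6.03e-06). Sik1, the cAMP-inducible SIK, gave 44.3, 45.1 and 46.6 CPM in the Lkb1-/- libraries and 22.97, 33.8 and 30.7 CPM in clone A2 (log2 fold change -0.64 ± 0.14, FDR 0.00123). Crtc1, the paralog of Crtc2, was also lower, at 59.4, 63.4 and 62.9 against 37.6, 45.3 and 47.2 CPM (log2 fold change -0.51 ± 0.07, FDR 1.38e-05). None of these 3 genes had overlapping groups. Ep300, which encodes p300, was called higher (log2 fold change 0.30 ± 0.06, FDR 8.09e-04). Sik3 was called lower by a small amount (log2 fold change -0.21 ± 0.07, FDR 0.022), and this call was lost without clone A2 library 1 (FDR 0.092), clone A2 library 3 (0.132), Lkb1-/- library 1 (0.0501) or Lkb1-/- library 2 (0.0893). Crtc3, Creb1, Atf1, Crebbp, Sik2 and Stk11 were not called, with log2 fold changes between -0.04 and 0.17, and Crtc3 was called higher when clone A2 library 1 was left out (log2 fold change 0.32, FDR 0.0293). Crtc1 lies on chromosome 8 and Ep300 on chromosome 15, whose genes as a whole had median log2 fold changes of -0.31 and 0.23, and of the 8 members outside the chromosomes with such shifts 4 were called lower and 0 higher by edgeR.

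CREB target genes formed the list with the most members called in 1 direction relative to its size, apart from the IL-6 family. Of 28 members tested, of 30 listed, 19 were called lower and 1 higher, against 15.1% and 17.1% of all genes, and the median log2 fold change was -0.69 against 0.02. Crem, Sik1, Areg, Pde4b, Pde4d, Pde10a, Irs2, Per1, Per2, Nfil3 and Ppargc1a belonged to this list and to another, and count in both. The palindrome TGACGTCA is the full cAMP response element, to which CREB binds as a dimer, and TGACG is its half-site. The 250 bases before the start of 4 genes are printed below with every TGACG, on either strand, and every TGACGTCA in capitals: Areg and Dusp1 as the only members of the list with the full element in the RefSeq promoter table, Nr4a1 as the member with the most half-sites printed here and no full element, and Il6 as a ligand of the IL-6 family that fell. The sequences run 5′ to 3′ on the strand of the gene, and are RefSeq's of GRCm38.p6.
Areg, chr5:91139349-91139598, plus strand: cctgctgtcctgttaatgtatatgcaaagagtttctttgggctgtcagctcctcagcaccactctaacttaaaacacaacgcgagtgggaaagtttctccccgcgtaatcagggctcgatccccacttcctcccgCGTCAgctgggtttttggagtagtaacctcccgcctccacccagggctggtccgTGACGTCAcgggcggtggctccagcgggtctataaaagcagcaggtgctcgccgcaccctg
Dusp1, chr17:26508473-26508722, minus strand: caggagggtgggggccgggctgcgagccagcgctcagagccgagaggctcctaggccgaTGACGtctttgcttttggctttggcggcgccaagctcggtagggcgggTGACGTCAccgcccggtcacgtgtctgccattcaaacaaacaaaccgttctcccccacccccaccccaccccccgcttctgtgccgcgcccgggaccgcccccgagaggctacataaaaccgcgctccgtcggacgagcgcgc
Nr4a1, chr15:101266596-101266845, plus strand: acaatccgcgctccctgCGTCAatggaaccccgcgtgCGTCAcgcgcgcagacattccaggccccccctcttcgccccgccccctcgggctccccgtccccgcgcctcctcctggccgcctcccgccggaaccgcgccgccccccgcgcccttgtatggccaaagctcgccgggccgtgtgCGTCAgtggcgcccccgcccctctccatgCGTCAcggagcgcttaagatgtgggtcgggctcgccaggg
Il6, chr5:30012864-30013113, plus strand: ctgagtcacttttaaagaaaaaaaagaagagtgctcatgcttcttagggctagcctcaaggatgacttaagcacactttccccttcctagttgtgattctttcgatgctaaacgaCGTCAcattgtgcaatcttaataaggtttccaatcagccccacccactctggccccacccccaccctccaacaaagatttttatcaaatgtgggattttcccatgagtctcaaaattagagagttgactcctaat
In the Areg promoter the full element begins 61 bases before the start, and in that of Dusp1 143 bases before it. The 4 half-sites of Nr4a1 begin 233, 213, 69 and 40 bases before the start, and the single half-site of Il6 begins 135 bases before it. A promoter of 300 bases, which runs to 50 bases after the start, was given for 1861 of the genes called lower, 2337 of those called higher and 10887 of those tested. TGACGTCA was present for 5.05% of the genes called lower, 3.12% of those called higher and 3.50% of those tested, and TGACG on either strand, which the full element also holds, for 40.0%, 32.5% and 34.7%. Of the 20 CREB target genes with a promoter in the table, 17 held a half-site. These are counts of letters in short windows and not of binding.

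Areg, the EGF receptor ligand amphiregulin, at chr5:91139599-91148432, gave 4.14, 2.04 and 3.52 CPM in the Lkb1-/- libraries and 0.766, 0.185 and 0.352 CPM in clone A2 (log2 fold change -2.87 ± 0.44, FDR 3.95e-05). Ptgs2, the inducible prostaglandin synthase known as COX-2, at chr1:150100031-150108227, gave 177, 104 and 104 CPM in the Lkb1-/- libraries and 26.3, 17.8 and 15.3 CPM in clone A2 (log2 fold change -2.69 ± 0.27, FDR 2.28e-07). For both genes every clone A2 library was below every Lkb1-/- library, by a wide margin, although the level of Ptgs2 in Lkb1-/- library 1 stood above the other Lkb1-/- libraries. Without clone A2 library 1 the change of Areg was larger, with a log2 fold change of -3.56.

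The 3 Nr4a genes encode nuclear receptors that are induced within minutes by cAMP. Nr4a1 gave 12.2, 8.96 and 9.55 CPM in the Lkb1-/- libraries and 6.35, 5.63 and 5.06 CPM in clone A2 (log2 fold change -0.85 ± 0.17, FDR 5.01e-04). Nr4a3 gave 2.08, 2.53 and 2.19 CPM in the Lkb1-/- libraries and 0.383, 0.81 and 0.881 CPM in clone A2 (log2 fold change -1.72 ± 0.34, FDR 5.81e-04). The third, Nr4a2, gave 20.1, 18.9 and 22.8 CPM in the Lkb1-/- libraries and 9.79, 14.4 and 18.6 CPM in clone A2 (log2 fold change -0.53 ± 0.20, FDR 0.0443). All 3 were lower without overlap of the groups. The call of Nr4a2 was lost without clone A2 library 1 (FDR 0.209), clone A2 library 2 (0.0876), Lkb1-/- library 1 (0.0803), Lkb1-/- library 2 (0.0568) or Lkb1-/- library 3 (0.134), and had an FDR of 0.00703 without clone A2 library 3.

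Other members, most of them feedback genes of the cAMP and growth factor pathways, were lower too. Dusp1, a phosphatase that inactivates MAP kinases, gave 20.6, 21.7 and 20.95 CPM in the Lkb1-/- libraries and 11.02, 12.1 and 10.7 CPM in clone A2 (log2 fold change -0.90 ± 0.09, FDR 2.25e-07). Rgs2, a regulator of G protein signaling, gave 11.7, 12.02 and 9.76 CPM in the Lkb1-/- libraries and 5.72, 5.97 and 4.56 CPM in clone A2 (log2 fold change -1.04 ± 0.21, FDR 6.86e-04). Klf4, a zinc finger factor, gave 42.8, 41.8 and 46.5 CPM in the Lkb1-/- libraries and 17.7, 21.1 and 26.6 CPM in clone A2 (log2 fold change -1.003 ± 0.15, FDR 2.88e-05). These 3 genes are examples chosen after their values were seen, and in each the highest clone A2 library lay below the lowest Lkb1-/- library. The phosphodiesterases Pde4b and Pde10a, which degrade cyclic nucleotides, were lower by 0.77 and 0.72 on the log2 scale (FDR 3.09e-04 and 1.35e-04), the small GTPase gene Gem by 0.66 (FDR 3.62e-04), and Irs2, an adaptor of the insulin receptor, by 0.57 (FDR 4.17e-04).

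Among the members with lower expression, Vgf was called lower at a level under 1 CPM (log2 fold change -1.71 ± 0.43, FDR 0.00382), and the calls of 4 further members were lost without 1 library or another. Ppargc1a, a coactivator of mitochondrial genes, had a log2 fold change of -1.06 and an FDR of 0.00896, which rose to 0.0504 without clone A2 library 1 and 0.0567 without Lkb1-/- library 1. Junb, an AP-1 factor, had -0.74 and 0.0104, with an FDR of 0.051 without clone A2 library 1. The clock gene Per2 had -0.82 and 0.00971, with 0.0804 without clone A2 library 3. Bdnf, a neurotrophin, had -0.55 and 0.0089, with 0.0932 without clone A2 library 3 and 0.108 without Lkb1-/- library 1. Atf3, a stress-inducible factor, was the member called higher, with 1.61, 1.21 and 1.36 CPM in the Lkb1-/- libraries and 2.12, 2.32 and 1.92 CPM in clone A2 (log2 fold change 0.60 ± 0.14, FDR 0.00217), a call that was lost with only the 2 groups in the fit (FDR 0.0624). Fos, Fosb, Egr1, Per1, Pde4d, Nfil3, Id1 and Nr3c1 were not called, with log2 fold changes between -0.45 and 0.40, and Pck1 and Sst were below the filter on low counts. A fit that took the libraries of equal number as blocks, called the replicate block below, called 3 members higher, in which Id1 had an FDR of 0.00361 and Pde4d 0.0206. Without clone A2 library 1 or library 3, 2 members were called higher. Chromosomes 8, 10, 11, 15 and 19 had a median log2 fold change beyond 0.2 over all their genes, and are called shifted below. Over all 13219 genes tested outside the shifted chromosomes, 1779 were called higher and 1924 lower, the background for every such count. Without the members on the shifted chromosomes the list had 16 of 24 called lower and 1 higher, with a median of -0.69.

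**Figure D2:**
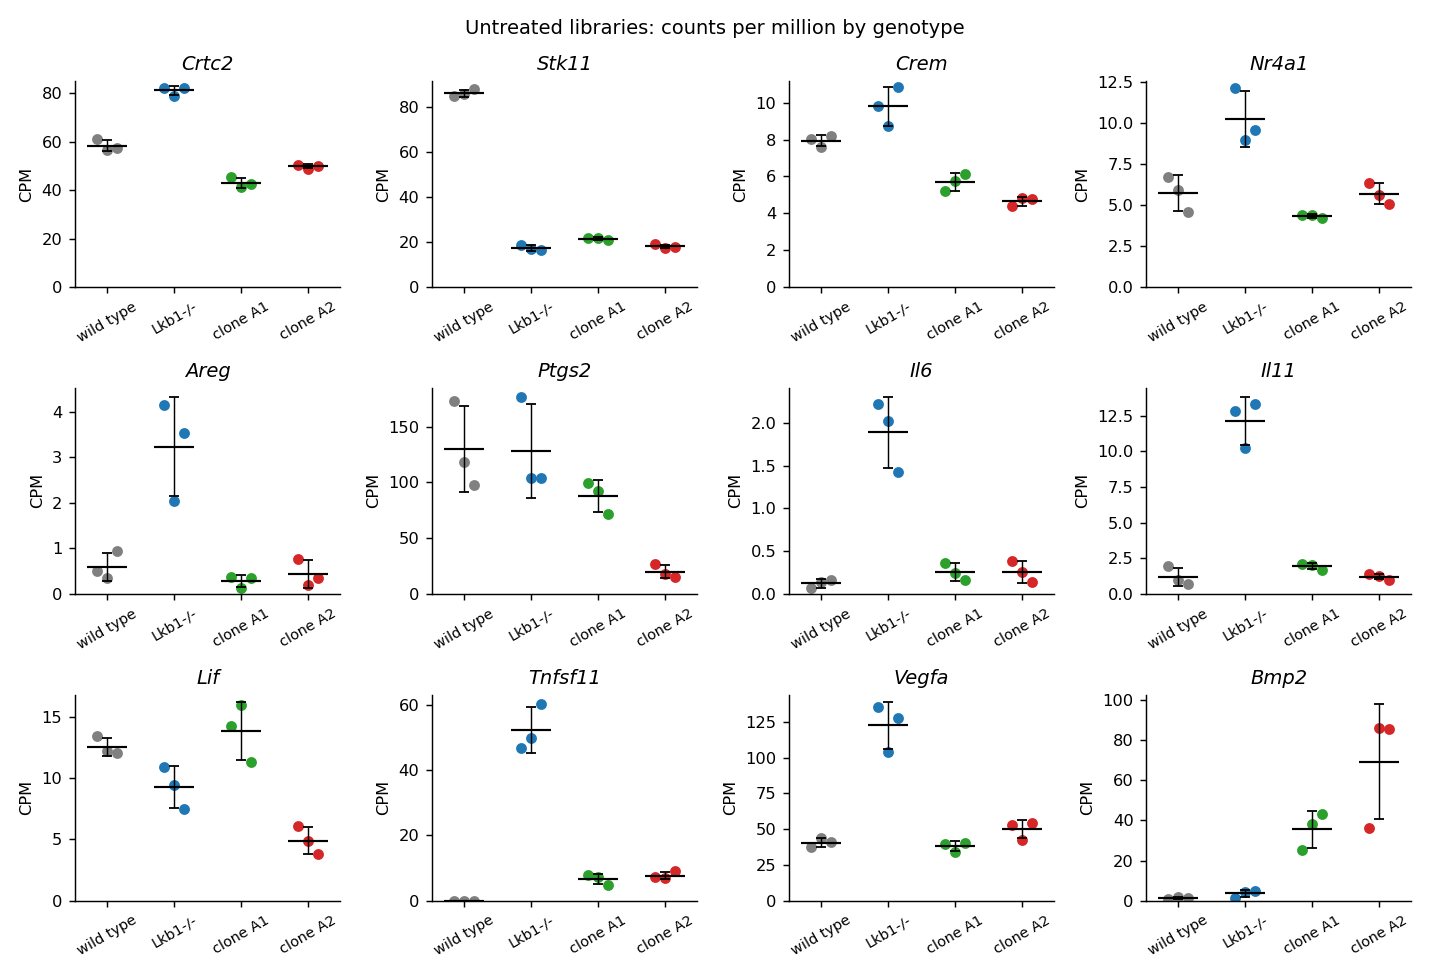
CPM (vertical axes, linear and from 0) of 12 genes in the untreated libraries of 4 genotypes, 3 points per genotype. Horizontal lines are means and error bars SDs over the 3 libraries. The 3 clone A2 libraries lie below the 3 Lkb1-/- libraries for Crtc2, Crem, Nr4a1, Areg, Ptgs2, Il6, Il11, Lif, Tnfsf11 and Vegfa, above them for Bmp2, and overlap them for Stk11.

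The enzymes that make and break down cAMP did not move in 1 direction. Of 22 tested genes of the cyclases, phosphodiesterases and subunits and inhibitors of protein kinase A, 6 were called higher and 7 lower, and their median log2 fold change was 0.02. Without Lkb1-/- library 3, 4 were called lower. Beside Pde4b and Pde10a, the cyclase gene Adcy7 was lower (log2 fold change -0.74 ± 0.17, FDR 0.00151), and the cyclase gene Adcy9 (log2 fold change 0.53 ± 0.11, FDR 8.22e-04), Pde4a (log2 fold change 0.49 ± 0.06, FDR 4.28e-06) and Pde1b (log2 fold change 2.03 ± 0.48, FDR 0.00232) were higher. Gnai1, which encodes a G protein subunit that inhibits adenylyl cyclase, was among the genes with the largest rise, with 4.93, 4.73 and 4.904 CPM in the Lkb1-/- libraries and 26.7, 37.97 and 38.04 CPM in clone A2 (log2 fold change 2.82 ± 0.17, FDR 2.49e-10).

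The ligands of the IL-6 family had 7 tested genes of 10 listed, of which 5 were called lower and 1, Ctf1, higher, with a median log2 fold change of -0.91. Il11, a fibroblast cytokine of this family, at chr7:4772373-4782859, gave 12.8, 10.2 and 13.4 CPM in the Lkb1-/- libraries and 1.37, 1.25 and 0.991 CPM in clone A2 (log2 fold change -3.33 ± 0.29, FDR 3.43e-08). Il6, at chr5:30013114-30019981, gave 2.22, 2.02 and 1.43 CPM in the Lkb1-/- libraries and 0.383, 0.255 and 0.132 CPM in clone A2 (log2 fold change -2.85 ± 0.37, FDR 5.39e-06). Lif, the leukemia inhibitory factor, at chr11:4257557-4272514, gave 10.9, 9.42 and 7.43 CPM in the Lkb1-/- libraries and 6.04, 4.84 and 3.81 CPM in clone A2 (log2 fold change -0.91 ± 0.16, FDR 1.32e-04). In all 3 the groups did not overlap, and the lowest Lkb1-/- library of Il11 was several times the highest clone A2 library. The level of Il6 was low in these unstimulated cells, with between 6 and 19 counts per library in clone A2 and between 60 and 98 in Lkb1-/- MEFs.

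Clcf1, another cytokine of the family, gave 46.1, 37.2 and 37.2 CPM in the Lkb1-/- libraries and 27.9, 21.2 and 21.1 CPM in clone A2 (log2 fold change -0.78 ± 0.24, FDR 0.0182), and its call was lost without clone A2 library 2 (FDR 0.0869), clone A2 library 3 (0.0879) or Lkb1-/- library 1 (0.0998). Ctf1, cardiotrophin, gave 4.66, 5.06 and 6.05 CPM in the Lkb1-/- libraries and 6.65, 8.08 and 9.22 CPM in clone A2 (log2 fold change 0.60 ± 0.15, FDR 0.00339), higher without overlap. Cntf was not called (log2 fold change -0.14, FDR 0.651), and Osm, Il27 and Ebi3 were below the filter. Lif lies on chromosome 11 and Clcf1 on chromosome 19, and outside the shifted chromosomes 3 members were left, Il6 and Il11 called lower and Ctf1 called higher.

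On the side of the receptors, Il6st, which encodes gp130, was not called (log2 fold change 0.19, FDR 0.372), nor were Il6ra, Il11ra1, Osmr and Stat3, whose log2 fold changes were 0.03, -0.31, 0.17 and 0.04. Lifr, the receptor of LIF, was higher in clone A2, with 66.1, 98.5 and 83.6 CPM in the Lkb1-/- libraries and 116, 219 and 219 CPM in clone A2 (log2 fold change 1.16 ± 0.24, FDR 6.78e-04). Socs2, a feedback inhibitor induced by STAT5, rose from a low level, with 0.498, 0.719 and 0.595 CPM in the Lkb1-/- libraries and 2.34, 4.399 and 4.51 CPM in clone A2 (log2 fold change 2.62 ± 0.28, FDR 3.82e-07). The groups of these 2 genes did not overlap. Stat5a rose as well (log2 fold change 0.78 ± 0.19, FDR 0.00285), and Jak3 fell (log2 fold change -0.58 ± 0.13, FDR 0.00111). Of the 25 receptors, JAK, STAT and SOCS genes tested, 8 were called higher and 2 lower, with a median of 0.12. Only 5 were called higher without Lkb1-/- library 2, and 1 was called lower without clone A2 library 1, Lkb1-/- library 2 or Lkb1-/- library 3. With the replicate block 5 were called lower. Of the 13 members outside the shifted chromosomes, 1 was called higher and 0 lower by edgeR.

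Chemokine genes moved in both directions. Of 22 tested of 35 listed, 6 were called higher and 5 lower, with a median log2 fold change of -0.11. Cxcl12, a homing chemokine of stromal cells, gave 54.2, 80.8 and 64.1 CPM in the Lkb1-/- libraries and 95.3, 179 and 155 CPM in clone A2 (log2 fold change 1.11 ± 0.25, FDR 0.00192). Ccl7 gave 147, 181 and 143 CPM in the Lkb1-/- libraries and 359.6, 281 and 229 CPM in clone A2 (log2 fold change 0.88 ± 0.14, FDR 7.09e-05), and its neighbour Ccl2, which attracts monocytes by the same receptor, 189, 219.7 and 166 against 314, 302 and 235 CPM (log2 fold change 0.57 ± 0.10, FDR 2.46e-04). The groups did not overlap for these 3 genes. Cxcl14 rose from 0.861 to 4.28 CPM (log2 fold change 2.31 ± 0.20, FDR 1.83e-07).

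In the other direction, Ccl28 had 0.611, 0.812 and 0.9999 CPM in Lkb1-/- MEFs and no count in any clone A2 library, so that it was at least 12.4-fold lower when each clone A2 library was set to 3 counts, and in unstranded counts its log2 fold change was -3.67. Ccl5 fell from 1.27 to 0.162 CPM (log2 fold change -2.97 ± 0.60, FDR 6.56e-04), and by more without clone A2 library 3 (log2 fold change -3.99) and less without both libraries numbered 1 (-2.33). Both Ccl5 and Ccl28 were below 2 CPM in all 6 libraries. The interferon-inducible Cxcl10 was lower (log2 fold change -1.35 ± 0.41, FDR 0.0156), a call that was lost without clone A2 library 3 (FDR 0.0776) or Lkb1-/- library 2 (0.0648), and 3 chemokines were called lower without either of these libraries. Of the neutrophil chemokines, Cxcl1 gave 12.5, 13.3 and 9.14 CPM in the Lkb1-/- libraries and 9.69, 8.31 and 6.03 CPM in clone A2 (log2 fold change -0.54 ± 0.20, FDR 0.0502), with an FDR of 0.0349 under the replicate block, 0.0231 without clone A2 library 1, 0.0255 without Lkb1-/- library 3 and 0.0274 by DESeq2. Cxcl5 gave 74.2, 73.3 and 60.9 CPM in the Lkb1-/- libraries and 82.02, 82.5 and 65.1 CPM in clone A2 (log2 fold change 0.14 ± 0.16, FDR 0.571), and the groups overlapped. Ppbp, the precursor of another neutrophil attractant, was lower, with 4.28, 3.74 and 4.36 CPM in the Lkb1-/- libraries and 1.99, 1.76 and 2.31 CPM in clone A2 (log2 fold change -1.03 ± 0.28, FDR 0.00781). Cxcl2 was called lower at about 1 CPM, with 1.49, 1.37 and 0.714 CPM in the Lkb1-/- libraries and 0.665, 0.857 and 0.594 CPM in clone A2 (log2 fold change -0.76 ± 0.25, FDR 0.0237), and its groups overlapped. This call was lost with the newer form of the test (FDR 0.0578), with only the 2 groups in the fit (0.124), without both libraries numbered 1 (0.19) and without clone A2 library 1 (0.0658), clone A2 library 3 (0.104), Lkb1-/- library 1 (0.153) or Lkb1-/- library 2 (0.0963). Cxcl3 was not called (log2 fold change -1.42, FDR 0.19). It was called lower without clone A2 library 1 (log2 fold change -3.09, FDR 0.0327) and with no filter on low counts (FDR 0.0418). Outside the shifted chromosomes, 2 of 12 chemokine genes were called higher and 4 lower.

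Growth factors and cytokines of other families included some of the largest falls. Of 32 tested, of 38 listed, 11 were called lower and 8 higher, with a median of -0.13. Hgf, hepatocyte growth factor, at chr5:16553495-16620152, gave 23.1, 24.6 and 33.8 CPM in the Lkb1-/- libraries and 1.01, 0.347 and 0.815 CPM in clone A2 (log2 fold change -5.21 ± 0.40, FDR 6.46e-09). Tnfsf11, the osteoclast factor RANKL, at chr14:78277445-78308043, gave 46.8, 49.9 and 60.1 CPM in the Lkb1-/- libraries and 7.13, 6.81 and 8.92 CPM in clone A2 (log2 fold change -2.78 ± 0.30, FDR 2.46e-06). Vegfa, the endothelial growth factor, at chr17:46016993-46032369, gave 135, 104 and 128 CPM in the Lkb1-/- libraries and 52.6, 42.7 and 54.6 CPM in clone A2 (log2 fold change -1.29 ± 0.15, FDR 1.37e-06). In these genes the groups were far apart relative to their spread. Ereg, like Areg a ligand of the EGF receptor, gave 121, 91.2 and 104 CPM in the Lkb1-/- libraries and 32.4, 18.7 and 22.6 CPM in clone A2 (log2 fold change -2.099 ± 0.22, FDR 2.85e-07). Inhba, the activin A subunit, was at 111, 87.1 and 87.8 against 48.8, 43.99 and 37.5 CPM (log2 fold change -1.13 ± 0.12, FDR 3.56e-07).

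The higher members were led by Tnfsf10, Il18, Tslp and Kitl. Kitl, the ligand of the KIT receptor, gave 84.3, 109 and 117 CPM in the Lkb1-/- libraries and 161, 272 and 283 CPM in clone A2 (log2 fold change 1.21 ± 0.22, FDR 2.36e-04). Il18 gave 2.72, 4.43 and 5.33 CPM in the Lkb1-/- libraries and 9.91, 14.9 and 16.1 CPM in clone A2 (log2 fold change 1.71 ± 0.26, FDR 3.93e-05). The epithelial alarmin Tslp was at 1.25, 0.882 and 0.928 against 3.103, 2.94 and 2.598 CPM (log2 fold change 1.496 ± 0.30, FDR 5.36e-04). The groups of these 3 did not overlap. The call of Tnfsf10 (log2 fold change 1.76, FDR 0.0226) was lost without clone A2 library 3 (0.0812), Lkb1-/- library 1 (0.0968) or Lkb1-/- library 2 (0.0534), and without Lkb1-/- library 1, 5 members were called higher. Outside the shifted chromosomes 5 of 22 were called higher and 10 lower. Il1rl1, which encodes the ST2 receptor of IL-33 and lies at chr1:40429570-40465415, fell, with 746, 615 and 667 CPM in the Lkb1-/- libraries and 159, 85.2 and 93.1 CPM in clone A2 (log2 fold change -2.59 ± 0.19, FDR 4.85e-09).

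Of 26 tested NF-κB factors and feedback targets, which respond to IL-1β, 3 were called higher and 4 lower in these untreated cells, against 17.1% and 15.1% of all genes, and their median log2 fold change was 0.02. The number called higher was 8 with the replicate block or without clone A2 library 1 and 1 without Lkb1-/- library 2. Nfkb1, which encodes the p105 precursor of p50, gave 144, 155 and 150.1 CPM in the Lkb1-/- libraries and 85.3, 98.2 and 90.2 CPM in clone A2 (log2 fold change -0.72 ± 0.09, FDR 3.75e-06). Irak1, a kinase of the IL-1 receptor pathway, gave 78.1, 78.7 and 84.4 CPM in the Lkb1-/- libraries and 41.7, 47.7 and 50.1 CPM in clone A2 (log2 fold change -0.79 ± 0.07, FDR 4.36e-08). The receptor gene Il1r1 was not called (log2 fold change -0.19, FDR 0.325), nor was Nfkbia (0.02, FDR 0.936).

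Of 36 interferon-stimulated genes tested, 3 were called higher and 4 lower, with a median of 0.23. The replicate block brought those called higher to 11. Oasl1 gave 3.49, 3.97 and 4.71 CPM in the Lkb1-/- libraries and 0.161, 0.324 and 0.22 CPM in clone A2 (log2 fold change -4.11 ± 0.63, FDR 3.95e-05), and Ifit1 gave 8.76, 13.8 and 9.95 CPM in the Lkb1-/- libraries and 0.705, 1.297 and 1.58 CPM in clone A2 (log2 fold change -3.19 ± 0.73, FDR 0.00185). Cgas, the sensor of cytosolic DNA, was lower with little spread, at 35.6, 35.03 and 30.4 against 13.7, 13.6 and 13.4 CPM (log2 fold change -1.31 ± 0.07, FDR 8.95e-11), whereas the factor gene Irf1 was higher (log2 fold change 0.66 ± 0.14, FDR 0.00103).

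Of 29 genes of glycolysis and the hypoxia response tested, of 30 listed, 14 were called lower and 2 higher, with a median log2 fold change of -0.40. The glucose transporter gene Slc2a1 gave 157, 186 and 172 CPM in the Lkb1-/- libraries and 92.3, 110.3 and 118 CPM in clone A2 (log2 fold change -0.68 ± 0.14, FDR 0.00105). Hexokinase 2, which commits glucose to the pathway, was at 68.3, 70.2 and 59.2 against 33.1, 40.1 and 36.96 CPM of Hk2 (log2 fold change -0.84 ± 0.14, FDR 7.84e-05). Of the enzymes that follow, Gpi1, Aldoa, Gapdh, Pgk1, Pgam1, Eno1, Pkm and Ldha were called lower, from 0.39 for Gpi1 to 0.90 for Pgam1 on the log2 scale, and Tpi1 was not called (log2 fold change -0.27, FDR 0.225). Gapdh, often used as a reference gene, gave 1223, 1351 and 1413 CPM in the Lkb1-/- libraries and 811, 925 and 1038 CPM in clone A2 (log2 fold change -0.52 ± 0.12, FDR 0.00189). Actb, another reference gene, gave 10107, 10212 and 10243 CPM in the Lkb1-/- libraries and 8047, 9697 and 9150.1 CPM in clone A2 (log2 fold change -0.18 ± 0.10, FDR 0.197), and passed the threshold with the replicate block (FDR 0.0413). Vegfa, described above, is also a gene of the hypoxia response, but Hif1a was not called (log2 fold change -0.37, FDR 0.158). The isozyme genes Aldoc and Ldhb were the members called higher (log2 fold changes 1.79 and 0.54), Ldhb not without clone A2 library 3 (FDR 0.09) or Lkb1-/- library 2 (0.0876). Outside the shifted chromosomes 10 of 21 members were called lower and 1 higher.

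**Figure D3:**
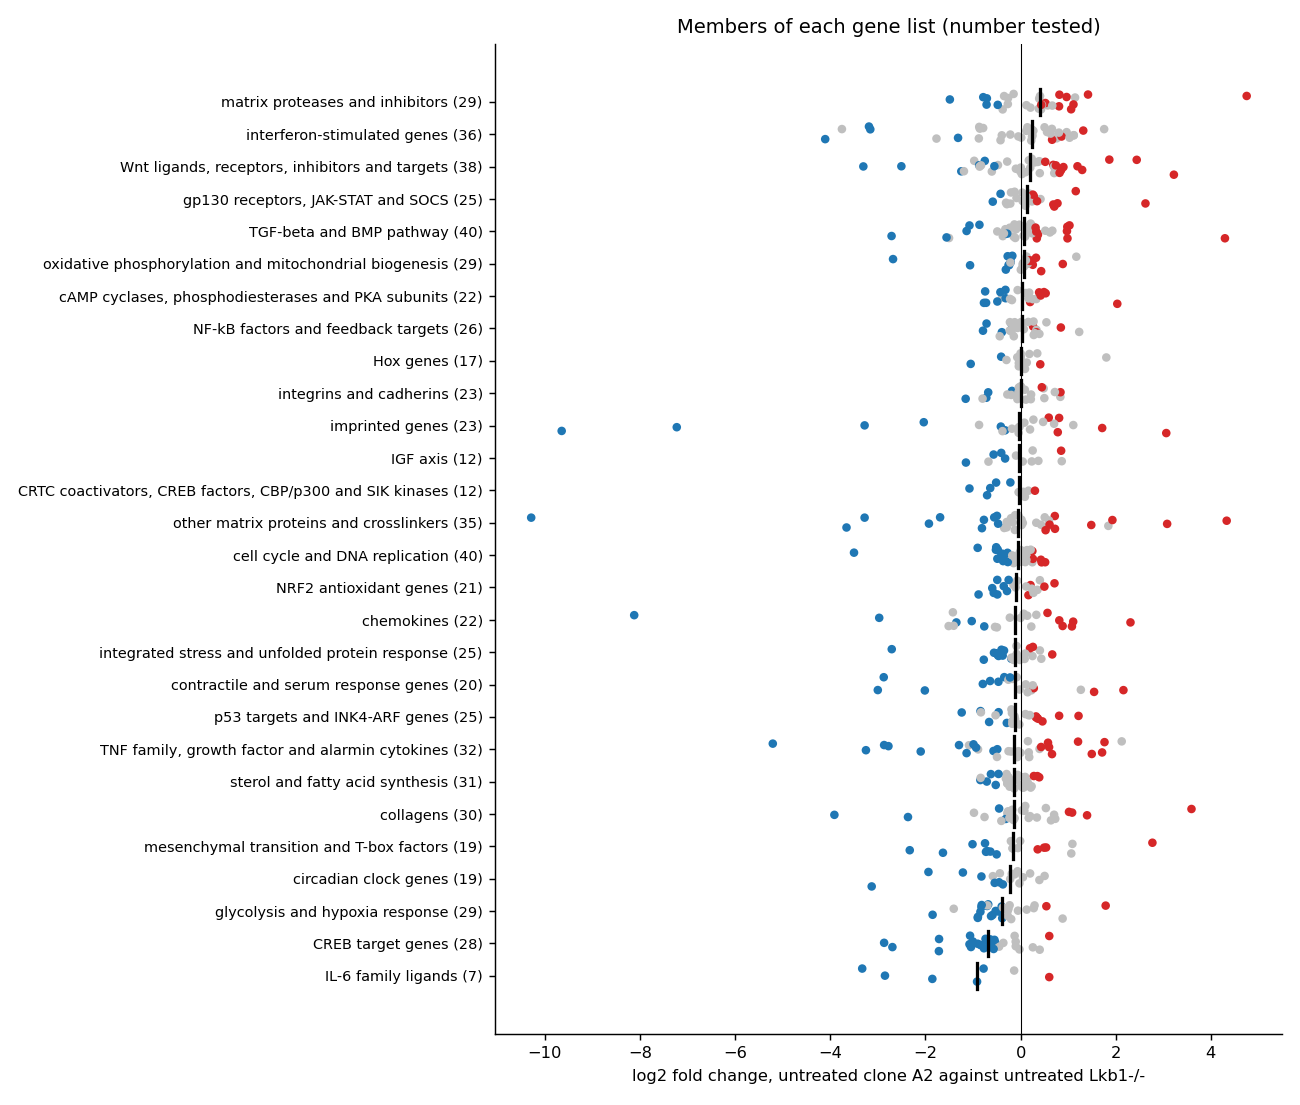
Log2 fold change of untreated clone A2 against untreated Lkb1-/- MEFs (horizontal axis) of the tested members of 28 gene lists (rows, with the number tested), ordered by their median, which a black bar marks. Red points were called higher, blue points called lower and grey points not called; vertical jitter has no meaning. IL-6 family ligands, CREB target genes and the glycolysis and hypoxia list have the 3 lowest medians.

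Circadian clock genes had 7 of 19 tested members called lower and 0 higher by edgeR, with a median of -0.22. The replicate block called 2 higher, and outside the shifted chromosomes 5 of 13 were called lower. Hlf, a PAR bZIP factor of the clock output, gave 74.5, 87.3 and 104 CPM in the Lkb1-/- libraries and 7.21, 9.52 and 13.6 CPM in clone A2 (log2 fold change -3.13 ± 0.34, FDR 5.73e-07). Rorb, a nuclear receptor of the clock loop, gave 33.2, 33.02 and 37.5 CPM in the Lkb1-/- libraries and 8.099, 8.61 and 10.4 CPM in clone A2 (log2 fold change -1.94 ± 0.16, FDR 1.46e-08), and Ciart, a repressor of CLOCK, was lower by 1.21 on the log2 scale (FDR 8.64e-05). Per1, Nr1d1 and Dbp were not called, with log2 fold changes of -0.02, -0.22 and 0.40. The time of day of harvest was not given in the sources used here.

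Of 20 contractile and serum response genes, 8 were called lower and 3 higher, with a median of -0.13, and 5 were called lower without clone A2 library 3, without Lkb1-/- library 1 or without both libraries numbered 1. Acta2, the smooth muscle actin of activated fibroblasts, gave 16.6, 19.6 and 11.4 CPM in the Lkb1-/- libraries and 1.65, 2.69 and 1.63 CPM in clone A2 (log2 fold change -3.001 ± 0.34, FDR 9.98e-07). Tpm1, a tropomyosin, gave 470.4, 434 and 444 CPM in the Lkb1-/- libraries and 314, 271 and 279.9 CPM in clone A2 (log2 fold change -0.64 ± 0.08, FDR 3.60e-06). By contrast Cnn1, calponin, gave 0.385, 0.464 and 0.429 CPM in the Lkb1-/- libraries and 1.75, 1.97 and 2.03 CPM in clone A2 (log2 fold change 2.16 ± 0.21, FDR 1.28e-07), and desmin rose from 0.311 to 0.914 CPM of Des (log2 fold change 1.55 ± 0.41, FDR 0.00606). Tagln was called lower (log2 fold change -2.88 ± 0.51, FDR 1.88e-04), but the unstranded counts gave a log2 fold change of -0.25, which was not called.

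The matrix genes did not shift together. Among 35 matrix proteins other than collagens 8 were called higher and 10 lower (median -0.05), and among 30 collagens 4 were called higher and 4 lower (median -0.14). Dcn, the small proteoglycan decorin, gave 228, 205 and 222 CPM in the Lkb1-/- libraries and 18.03, 14.2 and 35.2 CPM in clone A2 (log2 fold change -3.28 ± 0.31, FDR 9.73e-08). Efemp1, a fibulin, had 3.85, 3.16 and 3.88 CPM in Lkb1-/- MEFs and no count in clone A2, at least 55.6-fold lower at 3 counts per library. Acan, the cartilage proteoglycan aggrecan, fell (log2 fold change -1.93 ± 0.29, FDR 2.71e-05). The largest rise in the list of matrix proteins was that of the thrombospondin gene Thbs2, with 0.181, 0.371 and 0.286 CPM in the Lkb1-/- libraries and 4.41, 8.06 and 4.56 CPM in clone A2 (log2 fold change 4.33 ± 0.36, FDR 1.73e-08), followed by the laminin gene Lama4 (log2 fold change 3.08 ± 0.42, FDR 2.77e-05). Col1a2 rose, with 45.004, 73.4 and 70.7 CPM in the Lkb1-/- libraries and 79.3, 145 and 158 CPM in clone A2 (log2 fold change 1.02 ± 0.28, FDR 0.0073), and Col1a1 was not called (log2 fold change 0.53, FDR 0.0547). The replicate block called 7 collagens higher and 9 lower. Without Lkb1-/- library 2, 2 collagens were called in each direction, without Lkb1-/- library 3, 2 higher, and without clone A2 library 1, Lkb1-/- library 1 or both, 2 lower.

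Of 29 matrix proteases and inhibitors, 9 were called higher and 5 lower, with a median of 0.41 on the log2 scale. Mmp2, the gelatinase, gave 370.1, 469.6 and 567 CPM in the Lkb1-/- libraries and 104, 170.3 and 228 CPM in clone A2 (log2 fold change -1.49 ± 0.28, FDR 2.89e-04), and the inhibitor genes Timp1 (log2 fold change -0.71 ± 0.13, FDR 2.39e-04) and Timp3 (log2 fold change -0.78 ± 0.16, FDR 7.34e-04) fell as well. Mmp9, the other gelatinase, rose (log2 fold change 0.97 ± 0.21, FDR 0.0012), as did Adamts2, which processes procollagen (log2 fold change 1.42 ± 0.27, FDR 4.19e-04). The replicate block called 15 higher, and leaving out clone A2 library 1 called 14. Outside the shifted chromosomes 3 of 19 were called in each direction.

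Genes called without overlap and with a log2 of the mean CPM above 3 were ranked, leaving out provisional symbols such as Gm and digits. Bmp2 had the largest rise among them. This BMP ligand, at chr2:133552159-133562885, gave 1.45, 4.41 and 4.76 CPM in the Lkb1-/- libraries and 36.4, 86.1 and 85.7 CPM in clone A2 (log2 fold change 4.295 ± 0.46, FDR 5.50e-07), and library 1 was the lowest of its group in both genotypes. Bmp4 rose by less, with 4.05, 5.24 and 4.83 CPM in the Lkb1-/- libraries and 5.601, 12.04 and 10.4 CPM in clone A2 (log2 fold change 0.99 ± 0.24, FDR 0.00352). Grem1, a secreted BMP antagonist, gave 189, 223 and 195 CPM in the Lkb1-/- libraries and 324, 405 and 508 CPM in clone A2 (log2 fold change 1.03 ± 0.20, FDR 4.93e-04). All 3 were higher in clone A2 without overlap. Smad6, an inhibitory SMAD induced by BMP, rose (log2 fold change 0.98 ± 0.13, FDR 9.32e-06), while the receptor genes Bmpr1b (log2 fold change -2.71 ± 0.42, FDR 3.93e-05) and Tgfbr1 (log2 fold change -0.86 ± 0.07, FDR 1.93e-08) fell. The fall of Bmpr1b was larger without clone A2 library 3 (log2 fold change -3.38). In all, 10 of 40 TGF-β and BMP genes were called higher and 6 lower, with a median of 0.08, and the replicate block called 14 lower.

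Among Wnt genes, 11 of 38 were called higher and 6 lower, with a median of 0.19. The ligand Wnt5a gave 0.838, 1.04 and 1.36 CPM in the Lkb1-/- libraries and 3.002, 3.704 and 5.11 CPM in clone A2 (log2 fold change 1.87 ± 0.28, FDR 3.10e-05). Wnt4 gave 0.34, 0.371 and 0.571 CPM in the Lkb1-/- libraries and 1.81, 2.36 and 2.82 CPM in clone A2 (log2 fold change 2.44 ± 0.44, FDR 2.24e-04), and Wnt16 gave 0.113, 0.0696 and 0.0952 CPM in the Lkb1-/- libraries and 0.645, 1.02 and 1.01 CPM in clone A2 (log2 fold change 3.22 ± 0.58, FDR 3.77e-04; 1.94 in unstranded counts). These 3 were at a low level in Lkb1-/- MEFs and did not overlap between the groups. Other members called higher had log2 fold changes of 1.29 for Lef1, 1.196 for Notum and 0.74 for Tcf7 (FDR 1.32e-04, 0.00248 and 2.73e-05), while Ccnd1, a cyclin listed with the cell cycle that β-catenin signaling can also induce, was lower (log2 fold change -0.90 ± 0.25, FDR 0.00869), a call lost with only the 2 groups in the fit and without clone A2 library 2, clone A2 library 3 or Lkb1-/- library 1. Notum and Tcf7 lie on chromosome 11. Wnt10a gave 5.41, 5.499 and 6.07 CPM in the Lkb1-/- libraries and 1.13, 0.81 and 1.03 CPM in clone A2 (log2 fold change -2.51 ± 0.27, FDR 5.62e-07), and the inhibitor gene Dkk2 fell from 5.798 to 0.583 CPM (log2 fold change -3.305 ± 0.30, FDR 6.40e-08). The replicate block called 10 lower, and outside the shifted chromosomes 6 of 23 were called higher and 4 lower.

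Cell cycle genes were more often called lower than higher. Of 40 tested, 13 were called lower (32.5%) and 5 higher (12.5%), against 15.1% and 17.1% of all genes, with a median of -0.05. Ccnd2, cyclin D2, gave 16.7, 13.1 and 14.4 CPM in the Lkb1-/- libraries and 1.65, 0.926 and 1.28 CPM in clone A2 (log2 fold change -3.501 ± 0.31, FDR 4.21e-08). Mki67, a marker of cycling cells, gave 863, 898 and 895 CPM in the Lkb1-/- libraries and 579.97, 661 and 663 CPM in clone A2 (log2 fold change -0.48 ± 0.07, FDR 3.01e-05). Both were lower without overlap, and Rrm2, a subunit of ribonucleotide reductase, fell as well (log2 fold change -0.52 ± 0.06, FDR 9.98e-07). Cdk4 (log2 fold change 0.43 ± 0.05, FDR 2.03e-06) and Cdk2 (log2 fold change 0.44 ± 0.06, FDR 6.09e-06), both on chromosome 10, were higher by small amounts. The replicate block and the fit without clone A2 library 1 each called 8 higher. Of 25 p53 targets and INK4-ARF genes, 7 were called higher and 5 lower, with a median of -0.13, and Cdkn1a was not called (log2 fold change -0.12, FDR 0.749). The replicate block called 9 lower, and 3 were called lower without clone A2 library 1, clone A2 library 2, Lkb1-/- library 1 or Lkb1-/- library 3.

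Lists of metabolic and stress genes were read against the same background. The integrated stress and unfolded protein list had 10 of 25 called lower and 3 higher (median -0.13), and 4 of 14 lower outside the shifted chromosomes. Slc7a5, an amino acid transporter on chromosome 8, gave 177, 174 and 153 CPM in the Lkb1-/- libraries and 105, 95.02 and 94.4 CPM in clone A2 (log2 fold change -0.77 ± 0.08, FDR 2.39e-07). The NRF2 list had 8 of 21 called lower and 4 higher (median -0.10), and 5 of 15 lower and 2 higher outside those chromosomes. Gsr, glutathione reductase, gave 224, 200.3 and 229 CPM in the Lkb1-/- libraries and 112, 115 and 128 CPM in clone A2 (log2 fold change -0.88 ± 0.15, FDR 1.15e-04). Sterol and fatty acid synthesis had 5 of 31 called lower, near the 15.1% of all genes, and 3 higher (median -0.13), with 2 of 19 lower and 1 higher outside the shifted chromosomes, and the replicate block called 10 lower. The higher counts of these 3 lists changed with single libraries. Stress genes called higher were 6 without clone A2 library 1 and 1 without Lkb1-/- library 2, NRF2 genes 1 without clone A2 library 2, 2 without Lkb1-/- library 2 or without both libraries numbered 1 and 7 with the block, and sterol genes 0 by edgeR without clone A2 library 3 or Lkb1-/- library 2. Of 29 genes of oxidative phosphorylation, 7 were called higher and 9 lower (median 0.07), led by Ucp2, an uncoupling protein, with 51.7, 56.7 and 60.1 CPM in the Lkb1-/- libraries and 8.72, 9.42 and 8.12 CPM in clone A2 (log2 fold change -2.68 ± 0.13, FDR 1.03e-11). Between 4 and 5 of them were called lower without clone A2 library 2, clone A2 library 3, Lkb1-/- library 1 or Lkb1-/- library 3, and 4 called higher without both libraries numbered 1.

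Of 19 factors of mesenchymal identity tested, 8 were called lower and 4 higher, with a median of -0.17, among them Foxc2 (log2 fold change -1.63 ± 0.15, FDR 6.24e-08), Prrx1 (log2 fold change -0.75 ± 0.11, FDR 2.26e-05) and Twist2 (log2 fold change -0.73 ± 0.08, FDR 3.76e-07), which fell, and Osr2 (log2 fold change 2.77 ± 0.29, FDR 4.57e-07), which rose. Of 17 Hox genes, which record body position, 1 was called higher and 2 lower, against 17.1% and 15.1% of all genes. Between 0 and 1 were called lower by edgeR when any single library was left out, 1 without both libraries numbered 1, and 2 were called higher without clone A2 library 1 and 3 with the replicate block. Of 23 integrins and cadherins, 2 were called higher and 4 lower, with 5 called higher with the replicate block and 4 without clone A2 library 1. Of 12 genes of the IGF axis, 1 was called higher and 4 lower, with 2 called lower without clone A2 library 1 or Lkb1-/- library 2, and 0 higher by edgeR without Lkb1-/- library 2 or without both libraries numbered 1. Of 23 imprinted genes, 5 were called higher and 6 lower, and 8 higher with the block. Kcnq1ot1, a noncoding RNA transcribed from 1 parental allele, had 1, 0 and 0 counts in the clone A2 libraries and between 273 and 432 in Lkb1-/- MEFs, a ratio of 0.000889 (95% interval 2.2e-05 to 0.00496, for counting error only). Mest, an imprinted gene of mesoderm, had 0, 0 and 1 counts against between 56 and 83, a ratio of 0.00477 (0.00012 to 0.0269), and in unstranded counts the log2 fold changes of Kcnq1ot1 and Mest were -7.39 and -1.87.

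Genes called, with a log2 of the mean CPM above 3 and groups that did not overlap, were ranked by fold change. Symbols of the form Gm and digits, ending in Rik or with -ps, and identifiers without a symbol, were skipped. Among the genes ranked, the largest falls were those of Cspg4, Hgf and Auts2. Cspg4, the NG2 proteoglycan of pericytes and mural cells, at chr9:56865033-56899870, gave 17.2, 20.02 and 18.2 CPM in the Lkb1-/- libraries and 0.121, 0.232 and 0.418 CPM in clone A2 (log2 fold change -6.17 ± 0.28, FDR 3.33e-12; -5.15 in unstranded counts). Auts2, a nuclear factor of neuronal development, gave 21.2, 25.1 and 22.9 CPM in the Lkb1-/- libraries and 0.504, 0.857 and 0.925 CPM in clone A2 (log2 fold change -4.93 ± 0.19, FDR 6.54e-13). Slit3, a secreted guidance ligand, gave 47.9, 65.1 and 56.9 CPM in the Lkb1-/- libraries and 4.86, 6.81 and 6.93 CPM in clone A2 (log2 fold change -3.19 ± 0.20, FDR 1.53e-09). Crmp1 and Dpysl3, which encode related cytoskeletal proteins, fell by 3.32 and 2.86, and Sod3, the extracellular superoxide dismutase, by 2.74 on the log2 scale (FDR 2.32e-09, 6.04e-08 and 1.73e-08). After Bmp2 the largest rises were those of Scube3, Phactr1 and Lpl. Scube3, a secreted protein of the cell surface, gave 4.73, 7.15 and 7.31 CPM in the Lkb1-/- libraries and 55.6, 103 and 105 CPM in clone A2 (log2 fold change 3.78 ± 0.35, FDR 7.29e-08). Phactr1, a regulator of actin, gave 4.44, 9.51 and 9.19 CPM in the Lkb1-/- libraries and 30.3, 96.5 and 97.8 CPM in clone A2 (log2 fold change 3.28 ± 0.46, FDR 1.26e-05). Lpl, lipoprotein lipase, gave 1.52, 1.601 and 1.76 CPM in the Lkb1-/- libraries and 13.3, 17.2 and 16.4 CPM in clone A2 (log2 fold change 3.26 ± 0.23, FDR 5.83e-09). For Scube3 and Phactr1 library 1 was the lowest of its group in both genotypes. The homeobox gene Lhx9 (log2 fold change 2.84 ± 0.23, FDR 1.08e-08), Lgals3bp, a secreted galectin ligand (log2 fold change 2.83 ± 0.42, FDR 2.40e-05), and Prex1, an exchange factor of Rac (log2 fold change 2.48 ± 0.27, FDR 6.60e-07), were among the 12 largest rises chosen in this way.

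Fold changes also differed by chromosome. The median log2 fold change was 0.34 over 1294 genes of chromosome 11, 0.27 over 814 of chromosome 10 and 0.23 over 706 of chromosome 15, and -0.31 over 918 genes of chromosome 8 and -0.31 over 571 of chromosome 19, and lay between -0.19 and 0.19 on the other autosomes and the X chromosome. On chromosome 11, 643 genes were called higher and 2.32% of the genes lower, and on chromosome 8, 28 were called higher and 41.9% lower. In windows of 20 Mb with at least 20 genes the medians were between 0.24 and 0.39 on chromosome 11, 0.19 and 0.35 on chromosome 10, -0.41 and -0.26 on chromosome 8 and -0.36 and -0.25 on chromosome 19, so that each held along its whole length. The shift was present in each clone A2 library, for genes of chromosome 11 with a log2 of the mean CPM above 3 between 0.25 and 0.39 relative to the Lkb1-/- mean and for those of chromosome 8 between -0.41 and -0.28. In the IL-1β libraries of the same genotypes the medians of chromosomes 11 and 8 were 0.34 and -0.29. The part of these shifts in the calls of single genes was not tested, and the counts given above for genes outside the shifted chromosomes are those without them. The karyotype of the cells was not given in the sources used here.

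**Figure D4:**
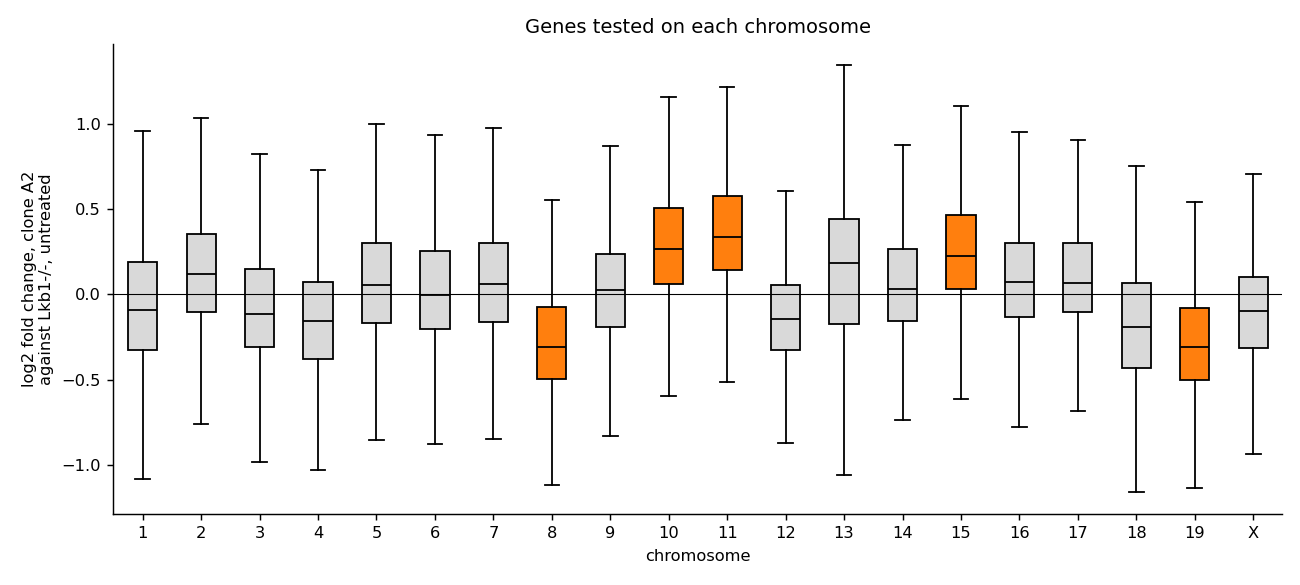
Log2 fold change of untreated clone A2 against untreated Lkb1-/- MEFs (vertical axis) of the genes tested on each chromosome (horizontal axis). Boxes run from the first to the third quartile with a line at the median, whiskers reach to 1.5 times the box, and points beyond are not drawn. Orange boxes are the 5 chromosomes with a median beyond 0.2 in either direction, which are chromosomes 10, 11 and 15 above 0 and chromosomes 8 and 19 below it.

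Clone A1 is a second clone that lacks the same 2 genes, and gave a direct comparison with clone A2. The edited Crtc2 alleles of the 2 clones were not given in the sources used here. A difference between the untreated clones was called for 5692 genes (32.5%), of which 2767 (15.8%) had the higher level in clone A2 and 2925 (16.7%) the lower. Since the comparisons of both clones with Lkb1-/- MEFs share the 3 Lkb1-/- libraries, their values are given side by side. In clone A1 35.3% of all genes were called against Lkb1-/- MEFs, 18.9% higher and 16.4% lower. The levels of Il11, Il6 and Tnfsf11 were low in both clones, with log2 fold changes against Lkb1-/- MEFs of -3.33, -2.85 and -2.78 in clone A2 and -2.65, -2.88 and -2.98 in clone A1, and none of the 3 was called between the clones (FDR 0.0878, 0.974 and 0.665). CREB target genes had 14 of 28 called lower and 3 higher in clone A1, with a median of -0.50, and the glycolysis and hypoxia list 13 of 29 lower and 0 higher by edgeR, with a median of -0.37. Hgf (-4.33), Auts2 (-5.48), Dcn (-2.93), Slit3 (-3.76) and Ucp2 (-3.33) were called lower in clone A1 as well, and Bmp2 (3.33), Gnai1 (2.205), Osr2 (3.13), the vitamin C transporter family gene Slc23a4 (4.36) and the RNA-binding protein gene Igf2bp3 (2.29) higher. Kcnq1ot1, Mest and Cspg4 had means of 0.0241, 0 and 0.144 CPM in clone A1, and were called lower there too. None of these 3 was called between the clones (FDR 0.543, 0.45 and 0.32).

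Other genes differed between the clones by direct test. Ptgs2 was at 19.8 ± 5.76 CPM (SD, n = 3) in clone A2 and 87.9 ± 14.6 CPM in clone A1 (log2 difference -2.15, FDR 3.11e-06), and in clone A1 was not called against Lkb1-/- MEFs (FDR 0.103). Il1rl1 was at 112 ± 40.3 and 769.6 ± 152 CPM (log2 difference -2.78, FDR 1.53e-09). Lif was at 4.897 ± 1.12 and 13.8 ± 2.35 CPM (log2 difference -1.49, FDR 3.53e-07), below the Lkb1-/- level in clone A2 and above it in clone A1. Lower in clone A2 than in both Lkb1-/- MEFs and clone A1 were also Acta2, Hlf and Dpysl3, by 3.53, 2.03 and 4.26 on the log2 scale against clone A1, and Gpc4, a glypican, by 8.31. Higher in clone A2 than in both were Scube3, Phactr1, Xlr, Fam189a2, Plppr3 and Tmem26, by 1.79, 2.42, 3.82, 3.11, 2.005 and 2.79 against clone A1. The chromosome medians differed too, with -0.38 on chromosome 17 and 0.32 on chromosome 9 in clone A1 against Lkb1-/- MEFs and 0.07 and 0.03 in clone A2, whereas chromosomes 8, 10, 11, 15 and 19 were at -0.37, 0.39, 0.29, 0.13 and -0.35 in clone A1.

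The libraries of the same 2 genotypes after IL-1β, the inflammatory cytokine used in the study, were separate libraries of the same cells. In them 5755 genes differed between the 2 genotypes (32.8%), of which 2994 (17.1%) were higher in the clone and 2761 (15.8%) lower. Of the 3005 genes called higher without treatment, 2422 were called higher after IL-1β, which was 80.6% of the untreated and 80.9% of the IL-1β calls, and of the 2650 called lower, 2182 were called lower, 82.3% and 79.0%. None was called in the opposite direction. Over 11618 genes with a log2 of the mean CPM above 1, the 2 sets of fold changes had a Pearson correlation of 0.940, a description over genes that share the clones. Il11, Il6 and Lif had log2 fold changes after IL-1β of -3.75, -2.89 and -2.03, and Cxcl1, which missed the threshold without treatment, -0.82 (FDR 0.00149). Ccl5 had 0.63 (FDR 0.254), and the difference from its untreated value of -2.97 had an unadjusted p of 7.31e-05 and an FDR of 0.215. In the same test the differences of Lif (-1.12) and Inhba (-0.83) had an unadjusted p of 3.52e-05 and 6.79e-05, also with an FDR of 0.215. The difference between the 2 contrasts was called for 0 genes by edgeR, with 388 at an unadjusted p under 0.05, for 18 with the replicate block and for 10 by DESeq2.

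**Figure D5:**
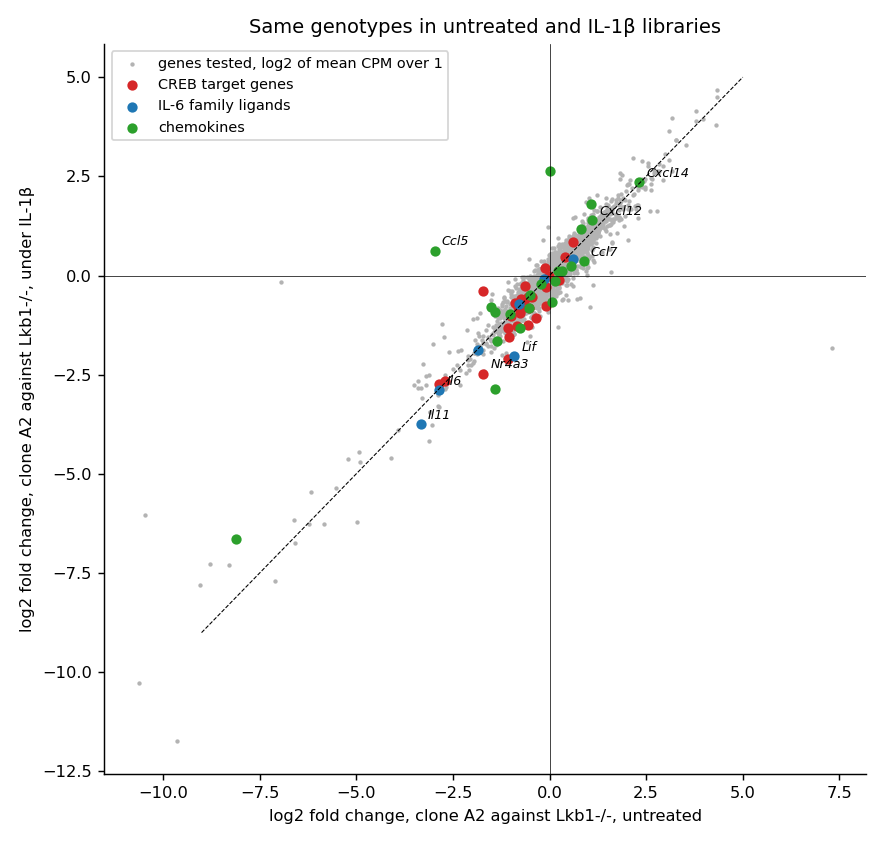
Log2 fold change of clone A2 against Lkb1-/- MEFs after IL-1β (vertical axis) against the same without treatment (horizontal axis), 1 grey point per gene for 11618 genes with a log2 of the mean CPM above 1, with CREB target genes in red, IL-6 family ligands in blue and chemokines in green at any level. The dashed line marks equal values. Most points lie along the line, and Ccl5 lies at -2.97 without treatment and 0.63 after IL-1β.

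Markers of fibroblasts were present in all 6 libraries. Those of epithelial, endothelial and muscle cells were near 0, whereas single markers of neural and of cartilage and bone cells, such as Ncam1 and Sox9, reached more than 100 CPM in Lkb1-/- MEFs. The 9 tested fibroblast markers summed to between 6814 and 7792 CPM in Lkb1-/- MEFs and between 6183 and 8436 CPM in clone A2. Of these 9, 1 was called higher, Col1a2, and 1 lower, Dcn, both described above. The replicate block called 2 higher and 2 lower. Vim, Pdgfra and Pdgfrb were not called (log2 fold changes 0.12, 0.07 and 0.05), and Thy1, Lum and Fap had at most 2 counts in any library. Of 10 epithelial markers 2 were tested, with a sum of at most 1.07 CPM, of 8 endothelial markers 2, with at most 3.15 CPM, and of 8 muscle markers none passed the filter. The macrophage and leukocyte markers summed to between 13.1 and 15.6 CPM and between 11.9 and 14.6 CPM, with Ptprc and Adgre1 at no more than 1 count. Of the 4 tested, Cd68 was called higher (log2 fold change 0.67 ± 0.20, FDR 0.0161), Cd14 lower (log2 fold change -0.51 ± 0.14, FDR 0.00627) and Lyz2 higher, with 3, 1 and 5 counts in the clone A2 libraries and 0 in each Lkb1-/- library. In unstranded counts Lyz2 was not called (log2 fold change 1.40, FDR 0.347). The number called higher was 0 by edgeR without both libraries numbered 1 and 1 in unstranded counts or without clone A2 library 3, Lkb1-/- library 2 or Lkb1-/- library 3, and the call of Cd14 was lost without clone A2 library 2 or Lkb1-/- library 1. Adipocyte markers summed to between 14.1 and 14.5 CPM in Lkb1-/- MEFs and between 27.4 and 37.1 CPM in clone A2. Of 4 tested, Lpl and Cebpa were higher and Pparg was lower (log2 fold change -1.03 ± 0.22, FDR 9.08e-04), and Adipoq, Plin1, Cidec and Lep had at most 3 counts in any library. The neural and Schwann markers summed to between 297 and 343 and between 159.8 and 202 CPM, and Sox2, S100b and Sox10 had at most 5 counts. Of 4 tested, 2 were called lower, Ncam1, an adhesion protein (log2 fold change -1.18 ± 0.20, FDR 9.29e-05), and Tubb3, a tubulin. The call of Tubb3 was lost without clone A2 library 1 (FDR 0.0782), Lkb1-/- library 3 (0.114) or both libraries numbered 1 (0.0728). The chondrocyte and osteoblast markers summed to between 341 and 349.98 and between 263 and 323 CPM. Of 5 tested, 2 were called higher and 1, Acan, lower, with a median log2 fold change of 0.16. The Y-linked genes Ddx3y, Eif2s3y, Kdm5d and Uty were expressed in both groups, at 89.9 ± 4.15 CPM for Ddx3y in Lkb1-/- MEFs and 92.5 ± 3.69 CPM in clone A2, and were at or near 0 in the wild-type MEFs. Kdm5d was called higher in clone A2 (log2 fold change 0.33 ± 0.07, FDR 9.65e-04).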

How the data were processed

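Per the labels and the study's methods, total RNA of 3T3 MEFs was sequenced as read pairs, which the authors trimmed with Trim Galore 0.6.0 and aligned to mm10 (GRCm38) with STAR 2.7.8a. The deposited files hold raw counts per gene for no strand, the first and the second strand, without normalization. The library kit is named differently in the labels and in the methods. The second strand column was used, as it held between 95.5% and 96.0% of stranded counts. Between 26.7% and 34.0% of pairs in the 6 libraries were on no gene and entered neither the library sizes nor the tests. Symbols were matched for 55230 of 55471 identifiers. Counts were between 38842901 and 48594394 in all 24 libraries.

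Counts of 24 libraries in 8 groups were fitted together with edgeR 4.0.16 (R 4.3.3, limma 3.58.1), with TMM normalization, filterByExpr (minimum count 10, minimum total 15), the quasi-likelihood F test in its older form and Benjamini-Hochberg adjustment, at an FDR under 0.05. The steps were tested on simulated counts. Values after ± are standard errors for fold changes and SDs for levels. Ratios have exact 95% intervals for counting error only.

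Genes were named by rules: the genes of the study's MEF RNA-seq, the CRTC and SIK list, the 12 largest changes in each direction above a log2 CPM of 3 without overlap, up to 5 called members in each direction of each list, 6 in each direction shared with or different from clone A1, the neighbours of Crtc2 and the sex-linked markers. In the choices by size of change over all genes, symbols of the form Gm and digits, ending in Rik or with -ps, and identifiers without a symbol, were skipped. The members and lists were chosen with earlier results of these data known. Further CREB targets and IL-6 ligands, members that were not called, and Slc2a1, Gpi1, Aldoa, Eno1, Pkm, Ldha, Tcf7 and Mki67 were named after their values were seen. Some members of the lists are counted but not reported here by name.

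The labels gave the same replicate numbers to each group. Deviations from the group means correlated between clone A2 and Lkb1-/- libraries of equal number (r = 0.40, 0.13 and 0.32) and between -0.36 and 0.06 otherwise, so that the numbers were taken as pairs in the replicate block. Alternatives were unstranded counts, DESeq2 size factors, upper quartile, edgeR's newer method, no filter, a minimum of 10 counts in each library, the replicate block, DESeq2 1.42.0, only the groups compared and each library left out.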

Additional observations from a re-analysis of the deposited data

Results flagged for a closer look

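A group of genes was called lower in 1 Lkb1-/-/Crtc2-/- clone and higher in the other, each against the same 3 untreated Lkb1-/- libraries, and differed between the clones by edgeR's direct test (FDR under 0.05 over all genes tested). Over all 17522 genes tested there were 438 such genes (2.5%), of which 266 were lower in clone A2 and higher in clone A1. Of the 438, 29 were among the 294 genes chosen by the naming rule or the lists of CREB targets and IL-6 ligands. Most of these 294 were chosen for being called, and 4 of the 29, Gpc4, Dpysl3, Xlr and Tmem26, were chosen for their difference from clone A1, so that their share cannot be read against that of all genes. The values that follow are log2 differences of clone A2 minus clone A1, both untreated, with 3 libraries each.

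Most were lower in clone A2 than in Lkb1-/- MEFs and higher in clone A1. Lif, the cytokine of the IL-6 family, differed by -1.49, with 4.897 ± 1.12 CPM (SD, n = 3) in clone A2, 9.25 ± 1.74 CPM in Lkb1-/- MEFs and 13.8 ± 2.35 CPM in clone A1. Among CREB pathway genes were Bdnf (-1.27), Adcy7 (-1.77) and Sik3 (-0.48). Contractile and serum response genes were Tpm1 (-1.83), Ccn1 (-2.07) and Tagln (-4.94). Matrix and protease genes were Col12a1 (-1.31), Fbln5 (-5.94), Ltbp2 (-3.62), Timp3 (-1.55), Plau (-1.07) and Pappa (-1.92). Fbln5 had 0, 2 and 0 counts in clone A2, so that its fitted value depended on the prior count, and Col12a1 passed the threshold against Lkb1-/- MEFs narrowly (FDR 0.0496).

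Also in this direction were the Wnt inhibitor Dkk2 (-4.53), the Wnt ligand Wnt10b (-2.06), the glypican Gpc4 (-8.31), the N-cadherin gene Cdh2 (-0.97), the p53 target Perp (-3.46) and the cytoskeletal gene Dpysl3 (-4.26). Transcription factors were Foxd1 (-2.02), Tbx20 (-3.54) and Bhlhe41 (-1.52), and Impact, an imprinted gene, differed by -0.80.

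Higher in clone A2 than in Lkb1-/- MEFs and lower in clone A1 were Wnt4 (4.46), Xlr (3.82), Tmem26 (2.79), Grem1 (1.99997), the imprinted noncoding RNA Airn (1.196) and Pcna, the DNA polymerase clamp (0.55).

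The call against Lkb1-/- MEFs was lost under at least 1 alternative for 8 of these genes. It was lost for Tagln in unstranded counts (FDR 0.827) and for Ltbp2 and Airn without both libraries numbered 1 (FDR 0.0862 and 0.0679). For Ccn1 it was lost with only the 2 groups in the fit (FDR 0.0637), without both libraries numbered 1 (0.0743), without clone A2 library 3 (0.108) and without Lkb1-/- library 1 (0.136). For Bhlhe41 it was lost without both libraries numbered 1 (FDR 0.0671), without clone A2 library 2 (0.0748) and without Lkb1-/- library 1 (0.0501). Bdnf was not called without clone A2 library 3 (FDR 0.0932) or Lkb1-/- library 1 (0.108). Sik3 and Col12a1 were not called with only the 2 groups in the fit, without both libraries numbered 1, or without clone A2 library 1 or 3 or Lkb1-/- library 1 or 2, and Col12a1 also in unstranded counts.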

How the results depend on the processing

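Of 294 named genes, 219 stayed on the same side of the threshold under every alternative that tested them, no named gene that was called changed direction, and the number called between untreated clone A2 and Lkb1-/- MEFs was 4564 with only the 2 groups in the fit, 8042 with the replicate block and between 4613 and 6039 with 1 library left out. The replicate block brought 6 named genes past the threshold, Actb, Cxcl1, Id1, Pde4d, Eif2s3y and Uty, and changed no other call of a named gene. Leaving out 1 library took between 19 and 40 named genes below the threshold, the most without Lkb1-/- library 2. When only genes with 10 or more counts in each library were tested, 5179 genes were called, against 5655. Of them 388 had a log2 change beyond 1, against 1205. This filter also leaves out genes near 0 in 1 genotype, and the cause of the lower count was not tested. The difference between the contrasts with and without IL-1β was called for 0 genes, for 1 after upper quartile normalization, for 68 with no filter, for 18 with the replicate block, for 10 by DESeq2, and for 0 to 1 with 1 library left out, where the cause was not tested. Of the IL-6 family ligands, 2 of 5 lower members remained without the shifted chromosomes, since fewer genes were left. With no filter on low counts, 13 interferon-stimulated genes were called higher against 3 and 13 genes of sterol and fatty acid synthesis lower against 5, and with the filter on every library 6 growth factor and cytokine genes were called lower against 11. Leaving out both libraries numbered 1, and leaving out the shifted chromosomes, were chosen after the data were seen.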
